A study of Caenorhabditis elegans with 2 samples.

Results

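The genes described here are 10 known upstream regulators of yolk production in the nematode Caenorhabditis elegans: pqm-1, sgk-1, rict-1, lrp-2, mab-3, dbl-1, lin-29, lin-14, alg-1 and sma-3. They were chosen by their known role upstream of the vitellogenin genes and by no rule on a measured value. The choice was still made with earlier results of these data known. They are 10 of 19973 nuclear protein-coding genes. For each gene, every peak was taken whose summit lay in the gene body or up to 10 kb upstream of it, a stretch called the window of the gene below. The peaks come from chromatin immunoprecipitation followed by sequencing (ChIP-seq) of UNC-62, a homeodomain protein of the Meis class, in whole young adult worms at 4 days of age, both sexes pooled per the labels. All worms were of strain OP600, which carries unc119(ed3) and the transgene wgIs600 with unc-62::TY1 EGFP FLAG and unc119, so the tagged UNC-62 came from a transgene in an unc-119 mutant background. The labels name unc-62 as the antibody but describe the target as eGFP-unc-62, and they list a control experiment as possible. The 2 biological replicates form 1 group with no second condition, so no comparison between conditions can be made. Because whole animals were used, strong binding in few cells and weak binding in many cannot be told apart.

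Yolk proteins, or vitellogenins, are lipoproteins made in the intestine of the adult hermaphrodite and taken up by growing oocytes. Their genes are switched on at the passage from larva to adult, under control of developmental timing, sex, nutrient signals and body size signals that partly act from other tissues. UNC-62 is itself known as an activator of these genes, and the question put to the peak lists is where it was bound around the other regulators. In the timing pathway, microRNAs bound by the Argonaute ALG-1 shut off early genes such as lin-14 and thereby allow the adult factor LIN-29 to act. RICT-1, the Rictor subunit of the kinase complex TORC2, acts through the kinase SGK-1, and PQM-1 is a zinc finger transcription factor that responds to this and to insulin signalling. DBL-1 is a ligand of the bone morphogenetic protein (BMP) type and SMA-3 is a Smad of its pathway. MAB-3 is a DM domain protein that represses vitellogenin genes in the male intestine, and LRP-2 belongs to the family of low-density lipoprotein receptors.

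Peaks kept by a threshold on the irreproducible discovery rate (IDR), which favours peaks that rank alike in both replicates, lay in the windows of 3 of the 10 regulators, lin-14, pqm-1 and alg-1, with 1 peak each. Over all protein-coding genes, 9.25% had such a peak in a window built the same way. The promoter window, 1000 bp before and 200 bp after any annotated start of a protein-coding transcript of the gene, held such a peak at alg-1 alone, against 2.43% of all genes. The 3 peaks were among the weaker ones of the 843 in that list, whose signal, a strength value given by the authors' peak caller, ran from 31.2 to 514 with a median of 40.2. Of the 843, 28 were mitochondrial and are counted in the ranks. The 815 nuclear ones had a median of 39.7 and a highest signal of 241. The lin-14 peak had a signal of 37.8 and rank 504, the pqm-1 peak 32.4 and rank 765, and the alg-1 peak 32.1 and rank 784. Just under the list's lowest value came a peak in an intron of sgk-1 (29.6, rank 923 of the pooled list) and another in lin-14 (28.0, rank 1065). The IDR-thresholded peaks are the 843 strongest of the 19023 in the list called on both replicates together, here called the pooled list, so this border is a cut in signal. Both of these peaks still had the highest −log10 q-value of that list, 3.40, which 406 of 18180 pooled peaks below the threshold shared.

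Sequence around the summits of these peaks and of the strongest sma-3 peak is shown because the text below refers to the DNA words in it. Each is on the strand of the regulator, from the WBcel235 (ce11) assembly, with 100 bases on each side of the summit. Capitals mark TGACAG, the word preferred by Meis proteins, or TGATAAG, an element bound by PQM-1 and by GATA factors, on either strand. The alg-1 summit lies in transcribed untranslated sequence, and for it only the word with its nearest bases is given.
lin-14 intron peak, chrX:11481063-11481263, plus strand: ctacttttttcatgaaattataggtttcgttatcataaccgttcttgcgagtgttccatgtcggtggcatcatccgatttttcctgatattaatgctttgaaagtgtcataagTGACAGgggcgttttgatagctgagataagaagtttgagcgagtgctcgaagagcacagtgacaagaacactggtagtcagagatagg
pqm-1 upstream peak, chrII:11153856-11154056, minus strand: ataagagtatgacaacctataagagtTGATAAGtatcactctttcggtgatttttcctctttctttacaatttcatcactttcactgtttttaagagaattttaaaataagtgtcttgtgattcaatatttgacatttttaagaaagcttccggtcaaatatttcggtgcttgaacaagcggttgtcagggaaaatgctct
alg-1 internal promoter peak, chrX:13950963-13950988, plus strand: ggaatgcattCTGTCAgcgcccgctt
sgk-1 intron peak, chrX:16260793-16260993, minus strand: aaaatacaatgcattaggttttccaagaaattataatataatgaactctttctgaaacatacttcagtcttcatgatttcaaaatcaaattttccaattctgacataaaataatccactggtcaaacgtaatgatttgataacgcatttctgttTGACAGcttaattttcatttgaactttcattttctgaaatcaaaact
lin-14 second intron peak, chrX:11482706-11482906, plus strand: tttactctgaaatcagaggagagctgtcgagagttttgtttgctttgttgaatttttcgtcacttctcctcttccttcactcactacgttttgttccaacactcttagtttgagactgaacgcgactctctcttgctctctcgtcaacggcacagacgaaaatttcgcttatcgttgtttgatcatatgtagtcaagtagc
sma-3 distal peak, chrIII:6872652-6872852, minus strand: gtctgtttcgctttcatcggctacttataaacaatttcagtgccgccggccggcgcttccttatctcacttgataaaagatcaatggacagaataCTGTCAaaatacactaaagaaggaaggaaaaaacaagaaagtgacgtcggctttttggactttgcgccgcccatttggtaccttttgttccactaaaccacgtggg

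In the pooled list, which also holds weak and background regions, all 10 regulators had at least 1 peak in their window, as did 86.0% of all genes. The 10 windows held 49 pooled peaks in 203 kb, or 0.241 per kb, beside 0.189 per kb over the nuclear genome. The number per window ran from 2 at mab-3 to 13 at lin-14, with a median of 4 against 2 for all genes, while the windows had a median length of 17.2 kb against 12.03 kb for all genes. The strongest pooled peak per window had a median signal of 20.9 over the 10 regulators and of 12.95 over all genes, genes without a peak counted as 0. A peak counted here whichever gene had the nearest start. At rict-1, lrp-2 and sma-3 the strongest peak had the start of another gene nearest. Longer genes have longer windows and more room for a peak, and these medians are not corrected for that.

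**Figure D1:**
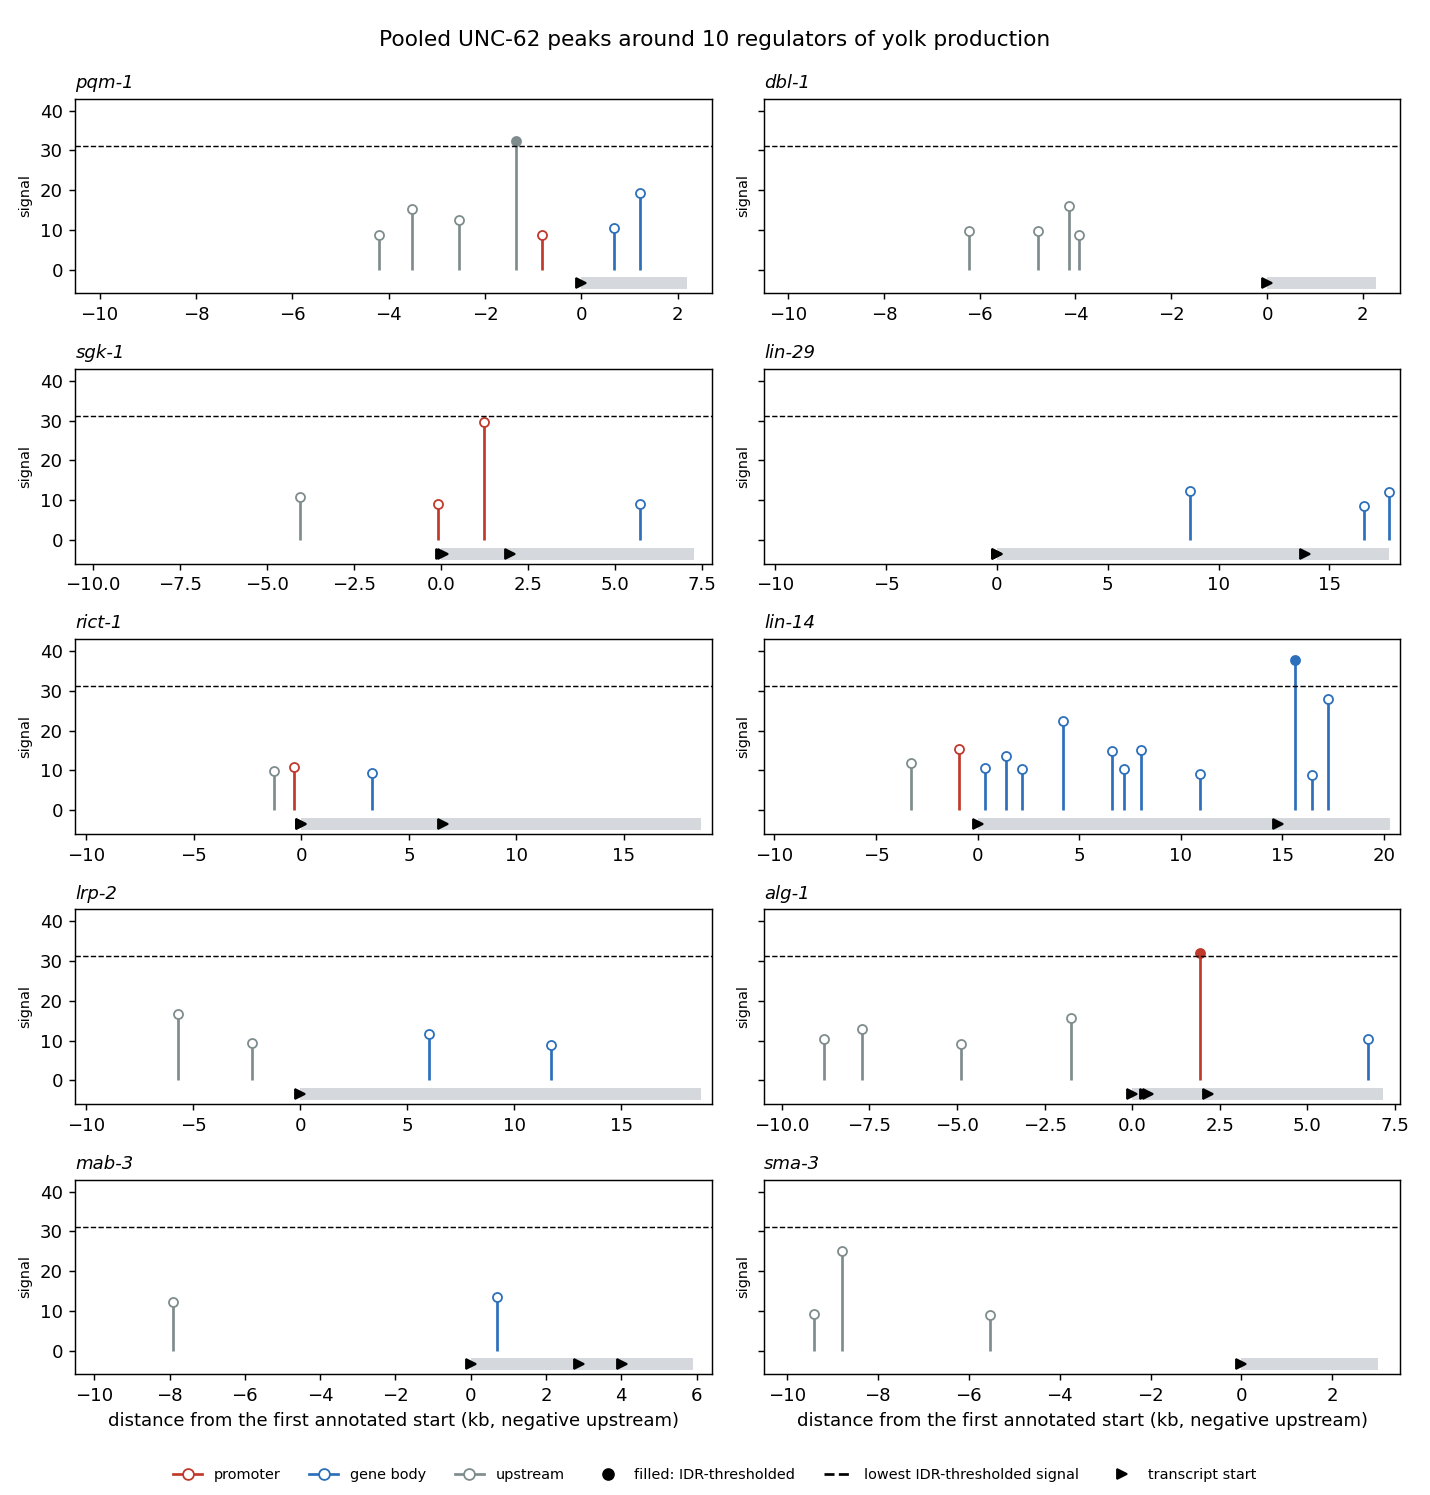
Pooled UNC-62 peaks in the window of each regulator, with the distance of the summit from the first annotated start in kb on the x axis and the authors' peak signal on the y axis. Colours give the place of the peak, filled points are IDR-thresholded peaks, the dashed line is their lowest signal of 31.2, the grey bar is the gene and arrowheads are annotated transcript starts. Filled points stand at pqm-1, lin-14 and alg-1, while dbl-1, lin-29, mab-3 and rict-1 have no peak above 16.

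Among the timing genes, lin-14 held the strongest peak and the largest number of peaks of the 10 regulators. The gene lin-14 encodes a nuclear protein of early larval stages that the microRNA lin-4 silences (X, 11465560 to 11485871). Its 20312 bp hold 2 annotated starts, 14801 bp apart. The strongest peak lay in an intron, 802 bp downstream of the second start, with signals of 8.13 in replicate 1 and 28.8 in replicate 2. That is rank 3178 of 30000 peaks in replicate 1 and rank 360 of 28092 in replicate 2, so the peak stood near the top of the second list only, although the summits lay 2 bp and -4 bp from the pooled one. A further peak in the next part of the gene, 2445 bp past the second start, had 12.1 and 16.7 (ranks 953 and 1444), which is closer between the replicates. In the long first part of the gene, 8 more pooled peaks stood between 363 bp and 10948 bp from the first start. The strongest of these had a pooled signal of 22.3 at 4209 bp, with 8.96 in replicate 1 and 11.98 in replicate 2. The promoter window of the first start held only a weaker peak of 15.3 at -907 bp (3.99 and 7.89). In total 11 of the 13 lin-14 peaks lay in the gene body outside promoter windows. All 13 had a lin-14 start as the nearest protein-coding start, and 9 of 13 were found in both replicates.

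The gene alg-1 encodes an Argonaute that carries microRNAs (X, 13949110 to 13956261). Its IDR-thresholded peak lay 1942 bp inside the gene, at -210 bp from the last of 4 annotated starts, within the annotated 5′ untranslated part of a longer transcript and in an intron of others. Its signals were 8.34 in replicate 1 (rank 2910) and 21.9 in replicate 2 (rank 759). The first 3 starts had no pooled peak in their promoter windows, and the closest peak upstream of the gene had a signal of 15.7 at -1749 bp from the first start (8.42 and 6.38). Of the 4 pooled peaks upstream of alg-1, 3 had the start of elt-3, a GATA factor gene, as the nearest start, and 1 of those had its summit in the elt-3 coding sequence. By contrast the gene of the adult timing factor LIN-29 (II, 11917642 to 11935343) had no peak upstream or at a promoter in the pooled list. Its strongest of 3 peaks, 12.2 in an intron, had 13.4 in replicate 2 and no overlapping peak in replicate 1. The other 2 also were absent from replicate 1, and both lay nearer to the start of hmg-12.

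Among 14 genes of the timing pathway and of microRNA machinery, 2 had an IDR-thresholded promoter peak, beside 2.43% of all genes. Besides alg-1 this was lin-28, which encodes an RNA-binding protein that blocks the let-7 microRNA. The lin-28 peak had a signal of 35.9, with 12.3 and 21.7 in replicates 1 and 2. It lay inside the gene, at -66 bp from the nearest annotated start. At least 1 pooled promoter peak was present at 11 of the 14, beside 33.2% of all protein-coding genes. Of 4 matched microRNA genes of the pathway, lin-4, mir-48, mir-84 and mir-241, none had an IDR-thresholded peak in its window (9.25% of protein-coding genes). The gene mir-48 had a pooled peak of 15.9 that overlapped it, found in replicate 1 (8.98) and not in replicate 2. The protein-coding start nearest to that peak was that of Y49A3A.4. The microRNA let-7 was not matched and is not analysed here.

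**Figure D2:**
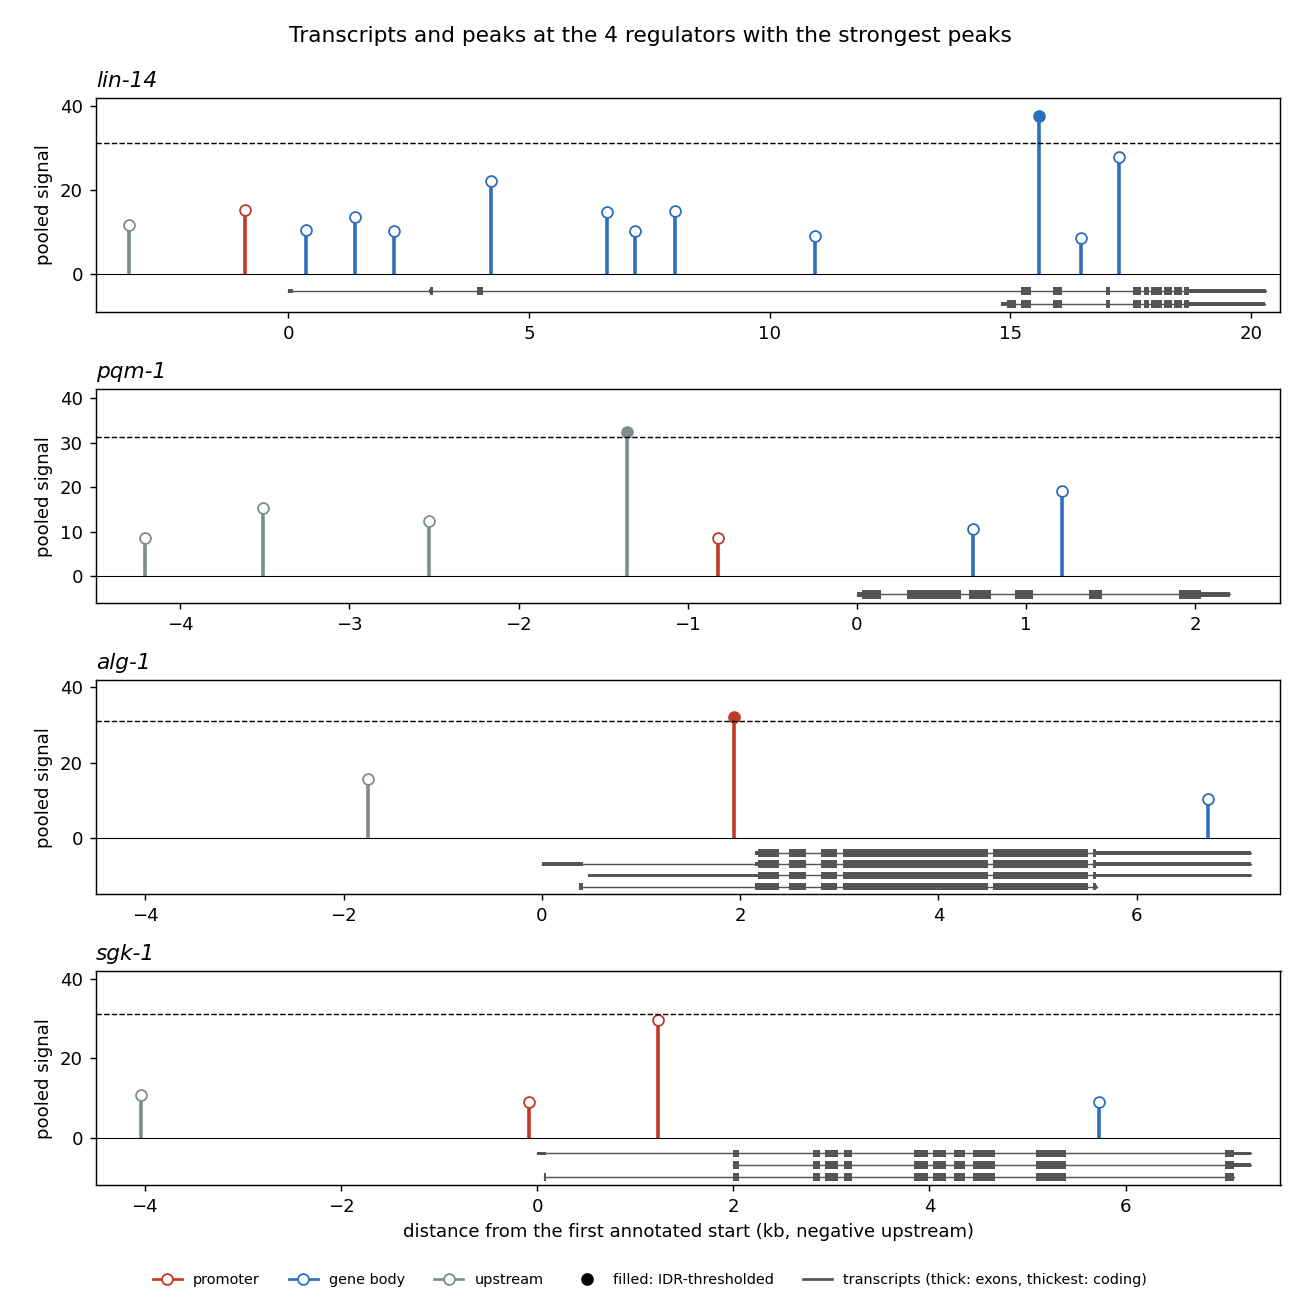
Annotated protein-coding transcripts and pooled peaks of lin-14, pqm-1, alg-1 and sgk-1, with the distance from the first annotated start in kb on the x axis and pooled signal on the y axis. The strongest peak lies inside the gene at lin-14, alg-1 and sgk-1, next to a later annotated start (802 bp, -210 bp and -765 bp from it), and upstream of the gene at pqm-1.

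In the TORC2 branch, the strongest peaks of pqm-1 and sgk-1 had higher signals than that of rict-1, but lay near the IDR threshold. The pqm-1 gene (II, 11150391 to 11152595) is short, with 1 annotated start, and its IDR-thresholded peak lay in intergenic sequence at -1361 bp, outside the promoter window. This peak was the most even of the 3 between replicates, with 14.8 in replicate 1 (rank 525) and 20.6 in replicate 2 (rank 889). Another 6 pooled peaks surrounded it, so that pqm-1 had the densest window of the 10, with 0.574 pooled peaks per kb. All 7 had the pqm-1 start as the nearest start. Of these, the intron peak at 1210 bp had a pooled signal of 19.2 (9.74 and 5.13), and the peak at -2532 bp had 12.3, with 11.97 in replicate 1 (rank 989) and no overlapping peak in replicate 2. The promoter window itself held only a peak of 8.63 at -822 bp, which was near the list's lowest value of 8.57 and was found in replicate 2 alone.

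The sgk-1 gene (X, 16254842 to 16262122) has 3 annotated starts, and its strongest peak, just under the IDR threshold, lay in the first intron of the longer transcripts at -765 bp from the last start. Its signals were 8.33 in replicate 1 (rank 2922) and 22.8 in replicate 2 (rank 668). At the first start, a weak peak of 9.10 at -84 bp was found in both replicates (4.44 and 8.40). The gene rict-1 (II, 13098239 to 13116810) had 3 pooled peaks in a window of 28.6 kb, the strongest with 10.9. That peak lay between rict-1 and the divergent gene gfm-1, at -345 bp from the former and -328 bp from the latter. It was found in replicate 2 (8.04) and not in replicate 1, and none of the 3 rict-1 peaks was found in both.

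Of 13 genes of TORC2, SGK and insulin signalling, 0 had an IDR-thresholded promoter peak (2.43% of all genes). An IDR-thresholded peak lay in the window of 3, pqm-1, akt-1 and daf-16 (9.25% of all genes). At 8 of the 13 there was a pooled promoter peak (33.2% of all genes). The strongest of these promoter peaks belonged to daf-16, which encodes the FOXO factor of insulin signalling, with a pooled signal of 29.9 at -192 bp (13.6 and 16.9). The next was that of sgk-1.

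The BMP-type ligand gene and the Smad gene had no pooled peak at their promoters or in the gene body. The 4 pooled peaks of dbl-1 (V, 6758135 to 6760418) lay from -6225 bp to -3927 bp, all in intergenic sequence with dbl-1 as the nearest start. The strongest had 15.9 at -4143 bp, with 6.29 in replicate 1 and 10.9 in replicate 2, and the peak at -3927 bp overlapped the same replicate peaks. The 3 peaks upstream of sma-3 (III, 6860974 to 6863968) included one of 25.2 at -8784 bp with 11.02 and 18.1 in the replicates. That peak lay at -337 bp from K04C2.3, and 0 of the 3 had sma-3 as the nearest start, so they are in the sma-3 window by the 10 kb rule alone. Among all 12 genes of the Sma/Mab pathway, 1 had an IDR-thresholded promoter peak, beside 2.43% of all genes. This was sma-9, which encodes a zinc finger cofactor of the Smads. Its peak had a signal of 56.5 (rank 157), with 15.8 in replicate 1 and 46.7 in replicate 2. It lay inside the gene, at -794 bp from the nearest annotated start. A pooled promoter peak was present at 9 of the 12, beside the same 33.2% of all genes.

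The gene mab-3 (II, 9732137 to 9738035) had 2 pooled peaks. That in an intron, 705 bp from the first start, had 13.5 (5.04 and 8.27), and the other lay within cutl-2 at -7909 bp and was found in replicate 1 alone. For lrp-2 (I, 3935272 to 3953991) the strongest of 4 pooled peaks had 16.6 at -5713 bp (6.70 and 9.76), nearer to the start of F47B3.4. Neither gene had a pooled promoter peak. Of 7 genes of sex determination and the DM domain family, 0 had an IDR-thresholded peak in the window (9.25% of all genes). The strongest pooled promoter peaks were 16.4 at her-1 and 13.5 at fem-3. Of 4 genes of lipoprotein receptors and yolk uptake, 1 had IDR-thresholded promoter peaks (2.43% of all genes). This was rme-1, an endocytic recycling gene, with 33.9 (4.97 and 32.9) inside the gene, at -269 bp from the nearest annotated start. The yolk receptor gene rme-2, named after its values were seen, had 0 pooled peaks in its window.

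**Figure D3:**
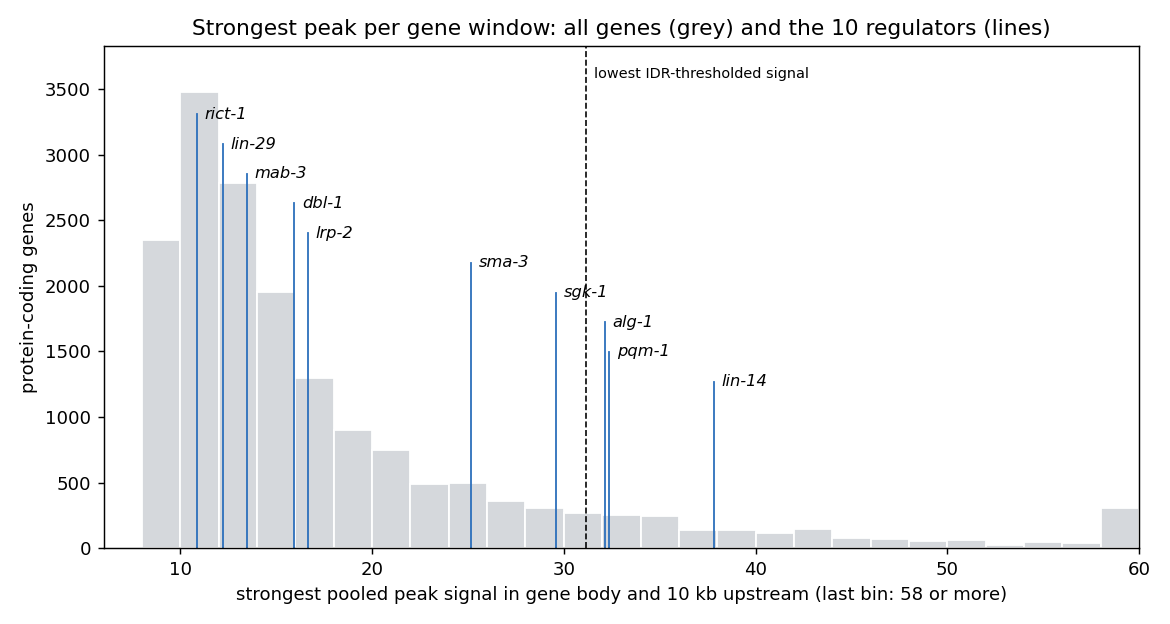
Number of protein-coding genes by the signal of the strongest pooled peak in the window (grey bars, genes with no peak not drawn), with the 10 regulators as lines whose heights only separate the names. The regulators span 10.9 at rict-1 to 37.8 at lin-14, and 3 of them pass the lowest IDR-thresholded signal of 31.2.

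Set among all genes, 5.53% had a stronger peak in their window than lin-14, 8.36% than pqm-1, 8.57% than alg-1 and 10.2% than sgk-1. The values were 14.3% for sma-3, 30.5% for lrp-2, 33.3% for dbl-1, 46.4% for mab-3, 55.0% for lin-29 and 66.4% for rict-1. The plot of strongest signals shows a gap between lrp-2 at 16.6 and sma-3 at 25.2. For promoter windows alone, 2.23% of genes had a stronger pooled peak than alg-1 and 2.70% than sgk-1. The promoter peaks of lin-14, rict-1 and pqm-1 were exceeded by 11.1%, 22.1% and 32.9% of genes, and the other 5 regulators had none. Genes with longer windows or more starts have more room for a strong peak, and these shares are not corrected for that. The lin-14 window, 30.3 kb, was the longest of the 10. Any pooled promoter peak was present at 5 of 10 regulators, beside 33.2% of all genes.

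As over the windows of all genes, most peaks in the windows of the regulators lay outside the gene's own promoter. Of the 49 pooled peaks, 6 (12.2%, exact 95% interval 4.63 to 24.8%) were in promoter windows of the regulator. A further 22 were in the rest of the gene body and 21 further upstream. Over the windows of all protein-coding genes, 15.99% of pairs of a gene and a pooled peak were at the gene's own promoter. The median signal was 13.1 for the 6 promoter peaks and 10.7 for the 43 other peaks, a difference of 0.29 on the log2 scale. Among all nuclear pooled peaks the medians were 11.997 in any promoter window and 10.995 outside. That split counts the promoter of any gene, so it is unlike the first. The 43 other peaks include some at promoters of neighbours, such as the sma-3 peak of 25.2 at -337 bp from K04C2.3. The difference at the regulators turned with a narrower promoter window, 500 bp before to 100 bp after a start, where it was -0.047 on the log2 scale with 3 promoter peaks. By annotation, 20 of the 49 summits were in introns, 20 were intergenic, 5 in coding sequence, 3 in the 3′ UTR and 1 in the 5′ UTR. For 15 of the 49 the nearest start belonged to another gene, since 34 of 49 had the regulator's own start nearest. Of the 21 upstream peaks, 11 had the regulator's own start nearest.

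Signals in the replicates were compared at the peaks of the regulators and at all peaks. Both replicates had an overlapping peak for 24 of the 49 pooled peaks (49.0%, exact 95% interval 34.4 to 63.7%), beside 44.3% of all nuclear pooled peaks. Replicate 2 gave the higher signal at 20 of these 24, as it did at 6782 of 8415 nuclear pooled peaks found in both, although nothing in the labels or files says that the 2 lists share a scale. The ratio of replicate 1 to replicate 2 was 0.282 at the lin-14 peak, 0.381 at alg-1 and 0.365 at sgk-1. It was 0.719 at pqm-1, 0.725 at the second lin-14 peak and 0.610 at the distal sma-3 peak. Over 807 nuclear IDR-thresholded peaks found in both replicates the median ratio was 0.534, with quartiles of 0.370 and 0.740, and replicate 2 was higher at 733 of them. The 7 strongest regulator peaks thus lay on both sides of this median, and the first lin-14 peak and the sgk-1 peak lay below the lower quartile.

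When each replicate list was cut to its own 843 strongest peaks, alg-1, lin-14 and sgk-1 had a peak in the window in replicate 2 (background 9.06%) and alg-1 and sgk-1 had one at a promoter (background 2.37%). In replicate 1, pqm-1 was the only regulator with a peak in the window (background 9.27%), and 0 regulators had one at a promoter (background 2.44%). No regulator was on both of these lists. The share of all genes on both was not computed, so this shows no trait of the regulators. The lowest signal kept was 12.6 in replicate 1 and 21.1 in replicate 2, so that the pqm-1 peak with 20.6 in replicate 2 stood just below.

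**Figure D4:**
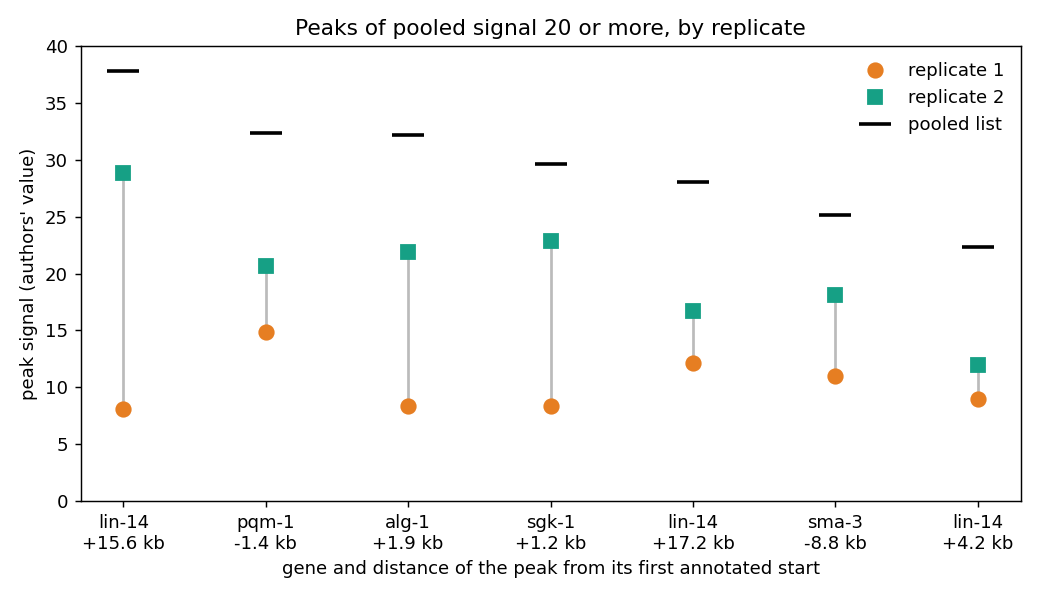
Signal of the 7 pooled peaks of 20 or more in the windows of the regulators, in replicate 1 (circles), replicate 2 (squares) and the pooled list (dashes). Replicate 2 is higher at all 7, as at 733 of 807 nuclear IDR-thresholded peaks found in both, with the widest gap at the first lin-14 peak (8.13 and 28.8) and narrower gaps at pqm-1 (14.8 and 20.6) and the last lin-14 peak (8.96 and 11.98).

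The 3 regulators on chromosome X, lin-14, alg-1 and sgk-1, held 23 of the 49 pooled peaks and 2 of the 3 IDR-thresholded ones in 64.7 of the 203 kb. Their density was 0.355 pooled peaks per kb, against 0.188 for the 7 regulators on autosomes. Over whole chromosomes it was 0.218 on X and 0.183 on autosomes, so that the X-linked regulators stood further above their chromosome than the autosomal ones, with 13 of the 23 peaks in lin-14 alone. On chromosome X lay 26.7% of the nuclear IDR-thresholded peaks and 20.4% of the nuclear pooled peaks.

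The DNA words stood at few of these peaks. On both strands and within 50 bp of the summit, TGACAG stood at 2 of the 49 pooled peaks (4.08%), against 5.79% of all nuclear pooled peaks and 22.0% of the nuclear IDR-thresholded ones. The 2 were the lin-14 peak of 37.8, where the word begins 13 bp after the summit, and the sma-3 peak of 25.2, where it begins at -5 bp. Within 100 bp, a wider reach chosen after the narrower one had been seen, it stood at 6 of 49 (12.2%), against 10.03% of all nuclear pooled peaks. At alg-1 the word begins at -79 bp and at sgk-1 at 54 bp. A longer word for Pbx and Meis proteins bound together, which contains TGACAG, was at 0 of 49 within either reach, and at 1.35% of nuclear IDR-thresholded peaks within 50 bp. The element TGATAAG was at 2 of 49 (4.08%) within 50 bp, against 4.63% of all nuclear pooled peaks. These were weak peaks, of 9.10 at -84 bp at sgk-1 and of 8.70 at 16459 bp in lin-14. Within 100 bp the element was at 5 of 49 (10.2%), against 8.15% of all nuclear pooled peaks. Among the 5 was the pqm-1 peak of 32.4, where it begins at -74 bp. A word is a match of letters and not a shown site. The median GC content within 50 bp of the summit was 36.6% for the 49 peaks, between 34.7% for all nuclear pooled peaks and 41.6% for the IDR-thresholded ones.

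Of 4 other genes for factors that act on vitellogenin genes, 3 had promoter peaks stronger than any peak of the 10 regulators. These 3 had IDR-thresholded promoter peaks, beside 2.43% of all genes. The promoter of vrp-1 had a signal of 112 (48.7 in replicate 1 and 66.4 in replicate 2). The promoters of unc-62 and of its partner gene ceh-60 had 79.1 (13.1 and 70.2) and 50.9 (26.6 and 24.8), and unc-62 is also present in the transgene. The unc-62 peak lay inside the gene, 36 bp past the nearest annotated start. The gene elt-2, which encodes the main GATA factor of the intestine, had no IDR-thresholded promoter peak and a pooled one of 18.2 at -537 bp (6.54 and 10.1). Of the 6 vitellogenin genes, 2 had an IDR-thresholded promoter peak, beside 2.43% of all genes. These were vit-6 with 73.0 and vit-2 with 63.1, above the 37.8 of the strongest regulator peak. The remaining vitellogenin genes had only weaker pooled promoter peaks, from 21.9 at vit-1 to 27.6 at vit-3. Those were below the strongest peaks of lin-14, pqm-1, alg-1 and sgk-1, the lowest of which was 29.6 at sgk-1. Of 54 matched genes of these pathways other than the 10 regulators, 8 had an IDR-thresholded promoter peak, beside 2.43% of protein-coding genes. The 54 include 4 microRNA genes, and all 8 were among the 50 protein-coding ones. The 8 were sma-9, lin-28, rme-1, vrp-1, unc-62, ceh-60, vit-2 and vit-6. These lists were drawn up with results of these data known, so the count describes these genes and no wider set.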

How the data were processed

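The 4 ChIP-seq peak lists on ce11 come from 2 biological replicates of 1 group. Per the texts deposited with the lists, a replicate list derives from its own aligned reads with a control, the pooled list from the reads of both, and the IDR-thresholded list from all 3. The aligner, the peak caller and their versions were not given in the sources used here, nor were IDR settings. The signal deposited by the authors (peak strength, scale not stated) described and ranked peaks within a list. The −log10 q-value deposited by the authors was at its limit in all 843 IDR-thresholded peaks. Read depth per replicate is unknown, so exact intervals cover counting of peaks only. They take the peaks as independent, although several share a gene, and give no spread over genes or animals. The 4 ce10 lists were not used.

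Genes were those of Ensembl release 115 (WBcel235), with sequence of that assembly from RefSeq. A summit counted for every gene whose window held it. Replicate values are those of the strongest overlapping peak (at least 1 bp). Assignment of peaks to genes was tested on simulated data. No tests were made: 1 group allows none between conditions, and peaks are not replicates. The members, the pathway lists and the alternatives were chosen with earlier results of these data known. Described are all 10 members with every IDR-thresholded peak and the strongest pooled peaks. From each pathway list come at most 4 genes with IDR-thresholded promoter peaks or the 2 strongest pooled ones. For the vitellogenin genes, the range of the remaining pooled promoter peaks is also given. Alternatives covered other windows, lists, overlap rules and each replicate alone. Python 3.11.15, numpy 2.4.6, pandas 2.3.3, scipy 1.17.1 and matplotlib 3.10.9 were used.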

Additional observations from a re-analysis of the deposited data

How the results depend on the processing

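Of 33 alternative values of 6 results, 19 stayed close to the reported value and 14 moved. The number of regulators with a promoter peak, 1 with the IDR-thresholded list, was 2 with the promoter window begun at 2000 bp before a start (pqm-1 joined alg-1), 5 with the pooled list and 0 with the 421 strongest peaks. It ran from 0 to 2 over the replicates alone: without replicate 1 it was 2 (alg-1 and sgk-1), and without replicate 2 it was 0. The number with a peak in the window, 3, was 10 with the pooled list, 0 with the 421 strongest peaks, and 1 to 3 over the replicates alone. The number of peaks in the windows, 3, was 0 with the 421 strongest peaks and 1 to 3 over the replicates alone. The promoter share, 12.2%, was 33.3% in the IDR-thresholded list (1 of 3 peaks). The log2 difference between promoter and other peaks, 0.29, was -0.047 and 0.52 with promoter windows begun at 500 bp and 2000 bp before a start, and 0.23 to 0.29 over the replicates alone. The count of other pathway genes with a promoter peak, 8, ran from 6 to 9. The causes were not tested. No paired analysis was possible because there is 1 group. Without read counts the precision of a signal is unknown, and the 3 peaks, at 32.1 to 37.8, lie near the threshold of 31.2.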
